A study of Homo sapiens with 4 samples.

Results

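The heat shock protein and J-domain genes were taken as the protein-coding genes whose symbols begin with DNAJA, DNAJB, DNAJC, HSPA, HSPB, HSPD, HSPE, HSPH or HSP90AA/AB. The unfolded-protein-response chaperones HSPA5, DNAJB9, DNAJB11 and DNAJC3, and HSPBP1 and HSPBAP1, were left out, as were pseudogenes and antisense RNAs. This rule gave 69 genes of the 63677 in the count files, and used no measured value. They comprised 2 HSP90 genes, 1 HSP110 gene, 13 HSP70 genes, 3 genes of the HSP60 and HSP10 group, 8 small heat shock protein genes, 4 DNAJA, 10 DNAJB and 28 DNAJC genes, 3 of the 69 being readthrough genes. Total RNA came from H929, an established multiple myeloma cell line, that is, malignant plasma cells in culture. One group was transduced with an shRNA against ILF2, which encodes NF45, the partner of the double-stranded RNA-binding protein NF90, and its control group with a non-silencing shRNA. Each group had 2 libraries, numbered 1 and 2 and described as independent replicates, without saying whether the cells were transduced separately. The p-values therefore refer to the spread between libraries, estimated with information shared across all tested genes. Neither the hairpin sequence nor the time after transduction is stated in the sources used here, and the labels mention no heat shock.

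Heat shock proteins are chaperones that bind unfolded proteins. HSP70 proteins work through cycles of ATP binding and hydrolysis: J-domain proteins (DNAJA, DNAJB and DNAJC) bring clients and stimulate hydrolysis, and nucleotide exchange factors such as HSP110 and the BAG proteins reset the cycle. HSP90 receives clients from HSP70, HSP60 with its lid HSP10 folds proteins in mitochondria, and small heat shock proteins hold unfolded proteins against aggregation. Heat shock factor 1 (HSF1) drives the inducible members through heat shock elements, which are inverted repeats of the unit GAA. Myeloma cells secrete large amounts of immunoglobulin and are known to depend on protein quality control.

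The promoter letters of the main members are shown first, because the family is known for heat shock factor control. Windows of 250 bases upstream of annotated starts were taken from RefSeq (GRCh38.p14). The 3-unit element, spelled GAANNTTCNNGAA or, on the other strand, TTCNNGAANNTTC, was present in 6 of 80 member windows (7.5%), against 155 of 35116 windows of all genes (0.441%). The 6 windows belonged to HSP90AA1, HSP90AB1, HSPA8, HSPA6, HSPD1 and DNAJB6. The stretches holding the letters are printed 5′ to 3′ along the gene, with the matching letters in capitals. A match describes the sequence and does not show a bound site.
HSP90AA1, chr14:102087097-102087156, minus strand: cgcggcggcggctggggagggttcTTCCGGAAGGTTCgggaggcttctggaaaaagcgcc
HSP90AB1, chr6:44247778-44247843, plus strand: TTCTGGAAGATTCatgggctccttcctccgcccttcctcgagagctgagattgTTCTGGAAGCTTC
HSPA8, chr11:123062179-123062366, minus strand: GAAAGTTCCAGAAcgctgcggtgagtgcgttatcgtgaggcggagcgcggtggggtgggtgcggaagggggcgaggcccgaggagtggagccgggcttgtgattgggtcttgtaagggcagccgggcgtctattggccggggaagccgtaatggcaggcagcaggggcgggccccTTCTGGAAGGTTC
HSPA6, chr1:161524442-161524501, plus strand: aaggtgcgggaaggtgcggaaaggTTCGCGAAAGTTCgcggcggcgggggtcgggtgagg
HSPD1, chr2:197500061-197500090, minus strand: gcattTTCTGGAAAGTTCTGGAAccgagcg
DNAJB6, chr7:157336849-157336908, plus strand: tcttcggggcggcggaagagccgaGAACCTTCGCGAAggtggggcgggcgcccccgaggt

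The shorter pattern GAANNTTC or TTCNNGAA, which lies inside the longer one, was present in 20 of 80 member windows (25%), against 11.6% of all windows. It was found upstream of HSPA1A, HSPA1B, DNAJA1, DNAJB1 and HSPB1 among others. HSPA1A and HSPA1B, the neighbouring genes of the main heat-inducible HSP70, have nearly the same promoter: 141 of 151 aligned positions were identical over the 150 bases upstream of each start (93.4%). Capitals mark the letters that differ between them or have no partner in the other.
HSPA1A, chr6:31815393-31815542, plus strand: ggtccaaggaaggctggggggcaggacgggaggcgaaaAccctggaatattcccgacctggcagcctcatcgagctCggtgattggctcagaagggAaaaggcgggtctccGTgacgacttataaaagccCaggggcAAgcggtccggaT
HSPA1B, chr6:31827588-31827737, plus strand: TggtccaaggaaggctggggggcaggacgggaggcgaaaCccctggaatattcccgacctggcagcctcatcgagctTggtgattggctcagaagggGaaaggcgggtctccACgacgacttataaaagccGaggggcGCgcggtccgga

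HSPD1 and HSPE1 stand head to head on chromosome 2. The upstream start of HSPD1 (position 197500274, minus strand) and the start of HSPE1 (position 197500379, plus strand) are separated by 104 bases, which are shown whole because the pair shares them; the element of HSPD1 above lies outside them, upstream of the other annotated HSPD1 start at position 197499840.
HSPE1, chr2:197500275-197500378, plus strand: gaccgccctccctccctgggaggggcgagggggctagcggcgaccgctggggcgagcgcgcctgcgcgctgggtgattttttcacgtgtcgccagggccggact

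For contrast, the 150 bases upstream of DNAJC12, the member whose level differed by the largest fold, hold neither pattern.
DNAJC12, chr10:67838189-67838338, minus strand: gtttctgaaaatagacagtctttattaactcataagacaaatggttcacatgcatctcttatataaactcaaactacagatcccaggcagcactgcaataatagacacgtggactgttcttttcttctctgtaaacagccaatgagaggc

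The 4 libraries held between 63459322 and 72977082 counted fragments and between 27595 and 28122 detected genes. ILF2 itself was at 107 and 114 CPM (fragment counts scaled to library size, with edgeR's TMM factors) with ILF2 shRNA and at 717 and 733 CPM with non-silencing shRNA, a log2 fold change of -2.71 (SE 0.07, adjusted p = 9.2e-39), so the libraries matched their labels. Mitochondrial RNA made up 0.516% and 0.463% of fragments with ILF2 shRNA, against 0.351% and 0.307% with non-silencing shRNA; its part in the results was not tested. All 9 plasma cell markers passed the filter on low counts; their summed level was 14814 and 14935 CPM with ILF2 shRNA and 12612 and 12920 CPM with non-silencing shRNA, with JCHAIN, MZB1, CD38 and TNFRSF17 called higher and SDC1 and SLAMF7 called lower (2 higher and 0 lower without either non-silencing library). The T cell list had 1 gene above the filter, CD3E (16.1 and 17.0 CPM with ILF2 shRNA, 8.22 and 7.49 CPM with non-silencing shRNA), while CD3D, CD2 and CD8A were each at most 0.0785 CPM. The summed myeloid, fibroblast and erythroid markers reached at most 0.763 CPM in any library, with FCGR3A and COL1A2 at 0. In bulk RNA, fewer cells of a kind and less RNA per cell cannot be told apart.

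Of the 69 members, 62 had a count in some library and 53 passed the filter on low counts and were tested. DNAJB7, DNAJB8, DNAJC25-GNG10, HSPB2-C11orf52, HSPB3, HSPB8 and HSPB9 were at 0 in all 4 libraries. DNAJA4, DNAJB13, DNAJC22, DNAJC5G, HSPA12B, HSPB2, HSPB6, HSPB7 and HSPE1-MOB4 had at most 11 counts in any library and were not tested. Of the 8 small heat shock protein genes, 7 were thus below the filter, so HSPB1 alone carried that class.

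The family took 1.25% and 1.21% of all fragments with ILF2 shRNA and 1.23% and 1.28% with non-silencing shRNA, so the groups overlapped. That total rested mainly on the most abundant classes. HSP70 genes summed to 6810 and 7034 CPM with ILF2 shRNA and to 6499 and 6804 CPM with non-silencing shRNA. HSP90 genes summed to 2590 and 2519 CPM with ILF2 shRNA and to 2716 and 2783 CPM with non-silencing shRNA. The overlap of the total thus does not hold for each class. Levels are compared between genes per length, as CPM per kilobase of exon. On that scale HSPA8, the constitutive HSP70 of the cytosol, stood at 1133 and 1194 with ILF2 shRNA and at 1091 and 1142 with non-silencing shRNA, between rank 5 and rank 7 among protein-coding genes in every library. HSP90AB1, the constitutive cytosolic HSP90, followed with 499.6 and 511 with ILF2 shRNA and 517 and 530.3 with non-silencing shRNA. HSP90AA1, HSPD1, the mitochondrial HSP70 gene HSPA9 and the ER-membrane J-protein gene DNAJC1 came next, each above 100 in every library. The lowest tested member by group mean was HSPA1A, at 0.142 and 0.131 with ILF2 shRNA and 0.105 and 0.108 with non-silencing shRNA. In non-silencing replicate 1, DNAJC5B was lower still, at 0.0968.

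**Figure D1:**
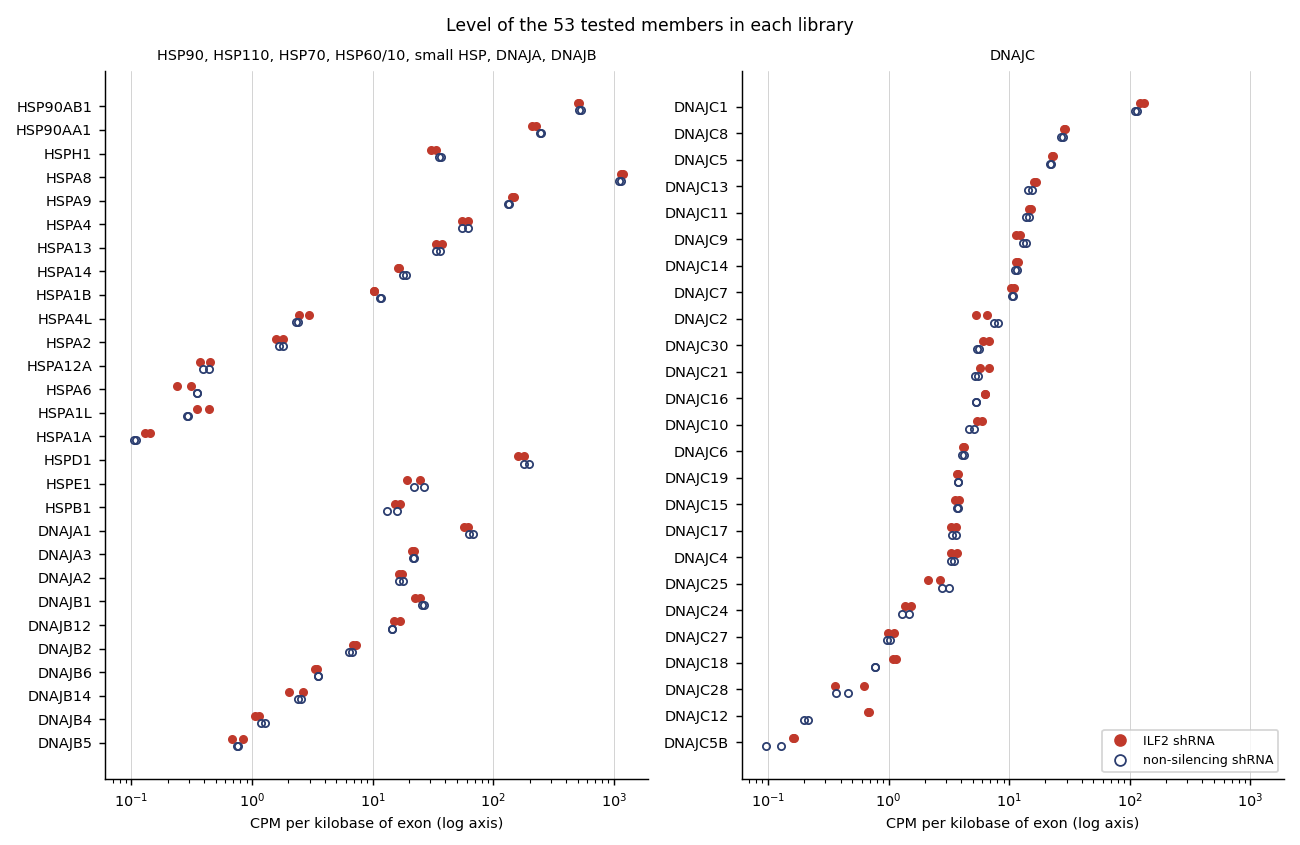
Level of each of the 53 tested members in each library, in CPM per kilobase of exon on a log axis; filled points are the ILF2 shRNA libraries and open points the non-silencing shRNA libraries, and members are ordered by level within their class. HSPA8 lies furthest right at 1133 and 1194 with ILF2 shRNA and 1091 and 1142 with non-silencing shRNA, and DNAJC12 shows a wide gap between its groups.

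Setting the ILF2 shRNA libraries against their controls asks how these genes moved when ILF2 was reduced. Of the 53 tested members, 5 were higher and 3 lower with ILF2 shRNA at an adjusted p under 0.05 (edgeR's quasi-likelihood test, adjusted over all 19142 tested genes), and 45 were not called. Over all tested genes 20.3% were called, 10.2% higher and 10.1% lower, so the members' counts lay near or below that background. All 5 higher genes were DNAJC genes (DNAJC12, DNAJC18, DNAJC16, DNAJC10 and DNAJC21), and the 3 lower genes were DNAJC2, DNAJC25 and HSPH1. The median log2 fold change of the tested members was 0.02 and their range -0.40 to 1.72, against a median of 0.00 over all genes. The median size of the log2 fold change was 0.141 in the members, 0.168 over all genes and 0.145 over the 13085 tested protein-coding genes. Of those protein-coding genes, 1620 were called higher and 1610 lower. Both ILF2 shRNA libraries were above both non-silencing libraries for 17 members and below them for 13, against 28.5% and 28% of all tested genes. At an unadjusted p under 0.05, 9 members were higher and 10 lower, against 15.5% and 15.4% of all tested genes. DESeq2 called 4 members higher and 1 lower (14.3% of all genes called), and an edgeR fit corrected for GC content and exon length, chosen after seeing the data, called 11 higher and 10 lower while it called 30.5% of all genes. Leaving out a library gave 5 higher and 8 lower without ILF2 shRNA replicate 1 (18.6% of all genes called), and 7 higher and 2 lower without ILF2 shRNA replicate 2 (15.3%). It gave 2 higher and 2 lower when non-silencing replicate 1 was dropped (10.8%), and 2 higher and 1 lower when non-silencing replicate 2 was (10.5%).

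**Figure D2:**
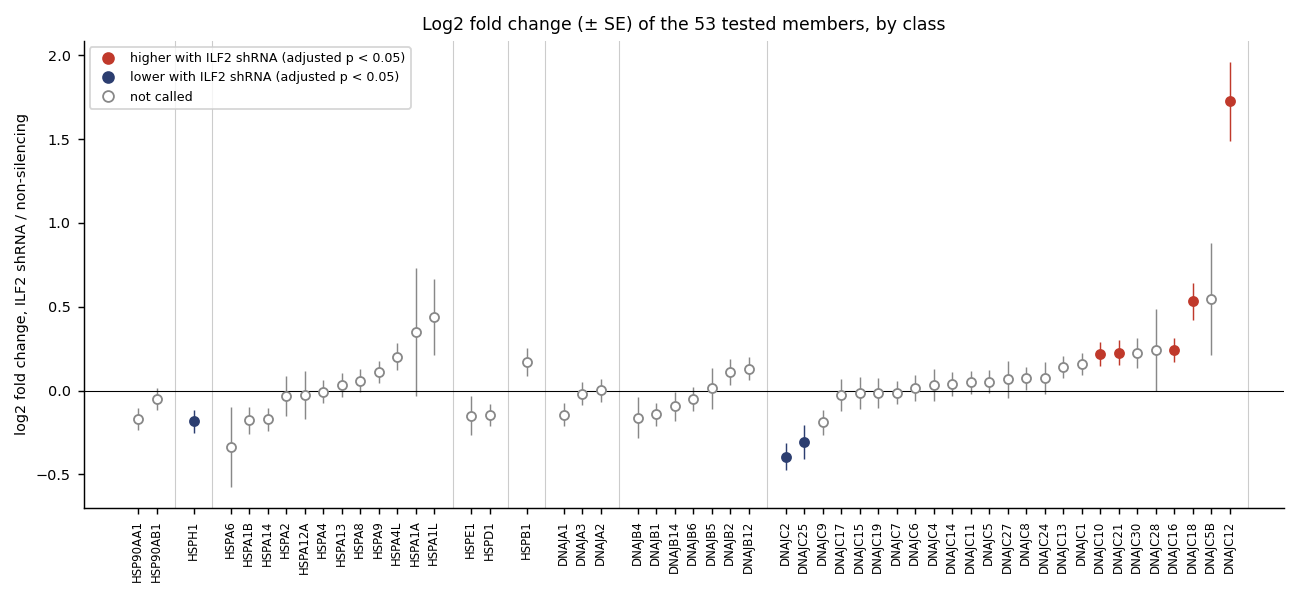
Fitted log2 fold change (ILF2 shRNA over non-silencing shRNA) with its standard error for the 53 tested members, grouped by class; filled points passed an adjusted p of 0.05. Most members lie close to 0, with a median of 0.02, and DNAJC12 stands apart at 1.72.

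Among the HSP90 and HSP110 genes, HSPH1 was the only one called. HSPH1, the HSP110 that acts as a nucleotide exchange factor for HSP70, was at 137 and 126 CPM with ILF2 shRNA and at 147 and 152 CPM with non-silencing shRNA. Both ILF2 shRNA libraries were the lower ones, and the log2 fold change was -0.18 (SE 0.07, adjusted p = 0.0470, fold 0.80 to 0.968 at 95% confidence). That call was lost without ILF2 shRNA replicate 2 (adjusted p = 0.308), when non-silencing replicate 1 (0.211) or replicate 2 (0.407) was left out, and with DESeq2 (0.0508).

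HSP90AA1, the heat-inducible cytosolic HSP90, was at 1193 and 1090 CPM with ILF2 shRNA and at 1271 and 1300 CPM with non-silencing shRNA, again with both ILF2 shRNA libraries lower. Its log2 fold change of -0.17 (SE 0.07) missed the threshold at an adjusted p of 0.0576. It also missed with DESeq2 (0.0534) and with the replicate number as a block (0.211). It passed with limma-voom (0.0341), upper-quartile scaling (0.0493), no filter on low counts (0.04997) and the filter of 1 CPM in 2 libraries (0.0395). The log2 fold change was -0.24 and -0.11 without ILF2 shRNA replicates 1 and 2. Without non-silencing replicates 1 and 2 it was -0.19 and -0.15. HSP90AB1 was at 1397 and 1428 CPM with ILF2 shRNA and at 1445 and 1483 CPM with non-silencing shRNA, groups that did not overlap but lay close together. The interval of its fold was 0.881 to 1.06 (log2 fold change -0.05, SE 0.07, adjusted p = 0.65). HSP90AB1 made up 68.7% and 71.1% of the per-length HSP90 level with ILF2 shRNA and 68.1% and 68.2% with non-silencing shRNA.

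None of the 12 tested HSP70 genes was called, against 20.3% of all tested genes. Of the 12, 6 had a positive and 6 a negative log2 fold change, with a median of 0.01 and a range of -0.34 to 0.44. HSPA8 was at 5492 and 5790 CPM with ILF2 shRNA and at 5293 and 5537 CPM with non-silencing shRNA. The groups overlapped, and the interval of its fold was 0.948 to 1.15 (log2 fold change 0.06, SE 0.07, adjusted p = 0.61). HSPA8 alone made up 80.3% and 81.9% of the per-length HSP70 level with ILF2 shRNA and 81.0% and 81.0% with non-silencing shRNA.

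HSPA1B was at 26.0 and 25.6 CPM with ILF2 shRNA and at 29.4 and 29.0 CPM with non-silencing shRNA. Its groups were clearly apart on the CPM scale, yet the log2 fold change of -0.18 (SE 0.08) did not pass (adjusted p = 0.106). HSPA1A had 22 and 22 counts with ILF2 shRNA and 19 and 19 counts with non-silencing shRNA, too few to tell a change (log2 fold change 0.35, SE 0.38, adjusted p = 0.59). Values for this pair are uncertain: 73.7% of the 76-base windows of HSPA1A and 73.3% of those of HSPA1B also occur in another annotated gene, mainly each other, and the handling of reads that fit both genes is not stated in the file headers. The strictly inducible HSPA6, likewise with 34.96% of its windows shared with HSPA7, was at 0.832 and 0.636 CPM with ILF2 shRNA and at 0.918 and 0.93 CPM with non-silencing shRNA, so all 3 inducible HSP70 genes were far below HSPA8 per length in both groups.

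HSPD1 (HSP60) and HSPE1 (HSP10), the mitochondrial chaperonin and its lid, were not called. HSPD1 was at 766 and 683 CPM with ILF2 shRNA and at 762 and 841 CPM with non-silencing shRNA, with overlapping groups (log2 fold change -0.15, SE 0.07, adjusted p = 0.128). Its log2 fold change was -0.23 and -0.07 without ILF2 shRNA replicates 1 and 2. Without non-silencing replicates 1 and 2 it was -0.22 and -0.07. HSPE1 was at 48.9 and 38.3 CPM with ILF2 shRNA and at 43.8 and 53.0 CPM with non-silencing shRNA (log2 fold change -0.15, SE 0.12, adjusted p = 0.44). Within each group, the library with more HSPD1 also had more HSPE1. This order of libraries was not particular to the pair: DNAJA1, DNAJC10 and HSPA4, among other members, had it too. The difference in HSPE1 rested on single libraries: the log2 fold change was 0.02 without ILF2 shRNA replicate 2 (adjusted p = 0.94) and -0.0063 when non-silencing replicate 2 was left out (adjusted p = 0.985), and without ILF2 shRNA replicate 1 it was -0.33 (adjusted p = 0.00127).

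HSPB1 (HSP27) was at 25.2 and 27.7 CPM with ILF2 shRNA and at 25.7 and 21.3 CPM with non-silencing shRNA. The groups overlapped (log2 fold change 0.17, SE 0.09, adjusted p = 0.165), and HSPB1 made up at least 99.5% of the per-length small heat shock protein level in every library.

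None of the 3 tested DNAJA and 7 tested DNAJB genes was called, against 20.3% of all tested genes. These J-domain proteins are the general partners of HSP70. DNAJA1, the most abundant DNAJA gene, was at 167 and 157 CPM with ILF2 shRNA and at 172 and 186 CPM with non-silencing shRNA (log2 fold change -0.14, SE 0.07, adjusted p = 0.133). DNAJB1, the heat-inducible HSP40, was at 82.2 and 91.1 CPM with ILF2 shRNA and at 97.3 and 94.1 CPM with non-silencing shRNA (log2 fold change -0.14, SE 0.07, adjusted p = 0.154). For both genes the ILF2 shRNA libraries were the lower ones. The log2 fold change of DNAJB1 was -0.07 and -0.22 without ILF2 shRNA replicates 1 and 2. Without non-silencing replicates 1 and 2 it was -0.12 and -0.17. DNAJB1 made up 43.0% and 44.2% of the per-length DNAJB level with ILF2 shRNA and 47.5% and 47.0% with non-silencing shRNA. The median log2 fold change of the DNAJB genes was -0.05.

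Across a set of 11 core and heat-inducible members, which does not hold HSPA6 (HSPA8, HSPA1A, HSPA1B, HSP90AA1, HSP90AB1, HSPH1, HSPD1, HSPE1, HSPB1, DNAJA1 and DNAJB1), 8 log2 fold changes were negative and 3 positive, with a median of -0.14. Both ILF2 shRNA libraries lay below both non-silencing libraries for 6 of them, a pattern seen in 28% of all tested genes. One of the 11, HSPH1, was called. With the GC content and exon length correction, HSP90AA1, HSPD1, DNAJA1, DNAJB1 and HSPA1B were called lower and HSPB1 higher, in a fit that called 30.5% of all genes.

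**Figure D3:**
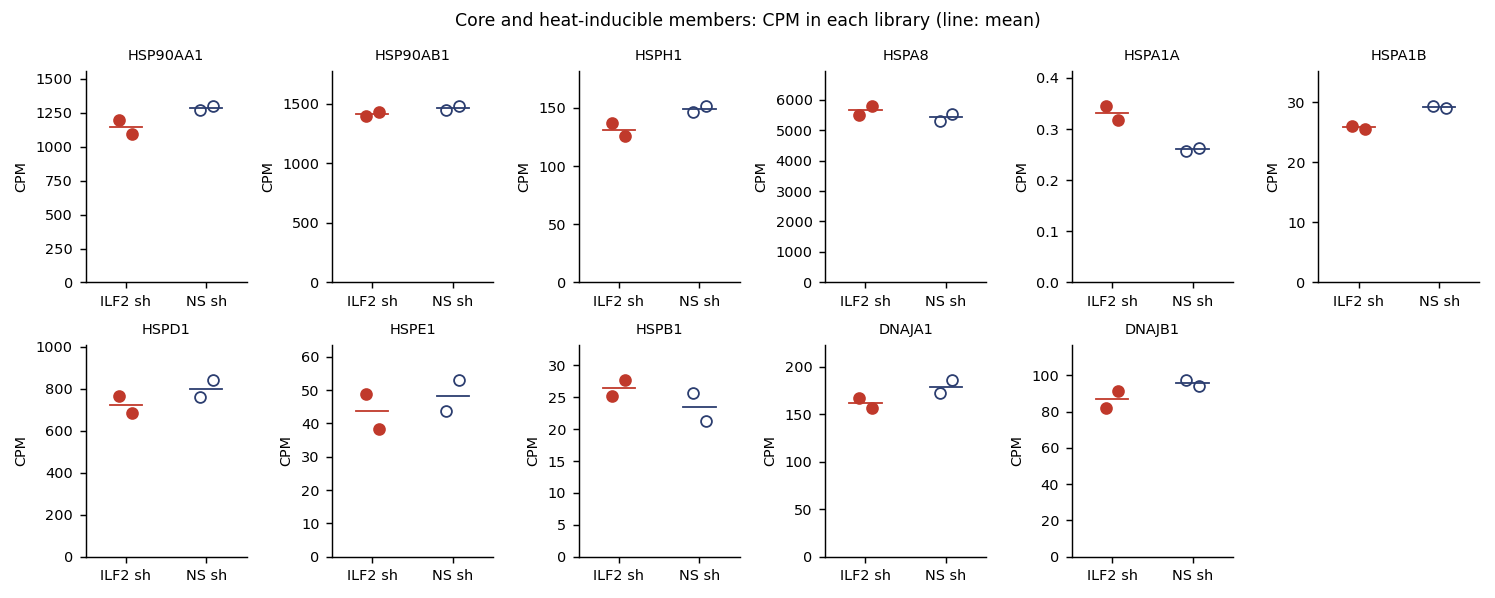
CPM of the 11 core and heat-inducible members in each library, with ILF2 shRNA (ILF2 sh, filled) left of non-silencing shRNA (NS sh, open) and a line at each group's mean; the axes start at 0. HSPH1, HSP90AA1 and HSPA1B lie a little lower with ILF2 shRNA, and HSPA8 overlaps between the groups.

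The DNAJC genes, J-domain proteins that share little beyond the J domain and serve specialised sites, held 7 of the 8 calls: of 25 tested, 5 were higher and 2 lower, against 10.2% and 10.1% of all tested genes; their median log2 fold change was 0.07. Whether the class differs from other genes was not tested. Both ILF2 shRNA libraries were above both non-silencing libraries for 11 of them and below for 3, against 28.5% and 28% of all tested genes. DNAJC12, a co-chaperone of the aromatic amino acid hydroxylases, had 92 and 101 counts with ILF2 shRNA and 31 and 33 counts with non-silencing shRNA. That was 1.45 ± 0.011 CPM with ILF2 shRNA and 0.438 ± 0.0279 CPM with non-silencing shRNA (SD, n = 2 each), groups far apart at a low level. The log2 fold change was 1.72 (SE 0.24, adjusted p = 6.0e-08, fold 2.38 to 4.58 at 95% confidence), the single member with a size above 1, and it lay between 1.66 and 1.79 in every fit that left out a library.

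DNAJC18, a J-protein of the ER membrane, was at 7.44 and 7.05 CPM with ILF2 shRNA and at 5.03 and 4.98 CPM with non-silencing shRNA. The groups were well apart, with a log2 fold change of 0.53 (SE 0.11, adjusted p = 0.00017). DNAJC16, another ER J-protein, was at 53.6 and 53.6 CPM with ILF2 shRNA and at 45.4 and 45.2 CPM with non-silencing shRNA. Its replicates nearly coincided, and the log2 fold change was 0.24 (SE 0.07, adjusted p = 0.0112). The call of DNAJC16 was lost without non-silencing replicate 1 (adjusted p = 0.137) or replicate 2 (0.160).

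DNAJC10 (ERdj5), which reduces disulfides in the ER, was at 129 and 116 CPM with ILF2 shRNA and at 99.9 and 111 CPM with non-silencing shRNA (log2 fold change 0.22, SE 0.07, adjusted p = 0.0193). DNAJC21, which acts in maturation of the large ribosomal subunit, was at 61.7 and 52.6 CPM with ILF2 shRNA and at 47.3 and 50.5 CPM with non-silencing shRNA (log2 fold change 0.23, SE 0.08, adjusted p = 0.0260). Neither gene's groups overlapped, but in both the lower ILF2 shRNA library came close to the higher control. The call of DNAJC10 was lost without ILF2 shRNA replicate 1 (adjusted p = 0.178), non-silencing replicate 1 (0.453) or non-silencing replicate 2 (0.0506). That of DNAJC21 was lost without the same libraries (0.398, 0.342 and 0.0855) and with DESeq2 (0.0617).

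DNAJC2, which binds ribosomes and helps nascent chains fold together with the HSP70 HSPA14, was the member with the largest decrease. It was at 42.9 and 34.7 CPM with ILF2 shRNA and at 49.0 and 53.1 CPM with non-silencing shRNA, with the groups apart but the ILF2 shRNA libraries unequal. The log2 fold change was -0.40 (SE 0.08, adjusted p = 0.00021, fold 0.679 to 0.85 at 95% confidence), and it ranged between -0.25 without ILF2 shRNA replicate 2 (adjusted p = 0.0236) and -0.55 without ILF2 shRNA replicate 1. HSPA14, looked at for this partnership after its values were seen, was at 79.1 and 77.8 CPM with ILF2 shRNA and at 85.7 and 91.2 CPM with non-silencing shRNA (log2 fold change -0.17, SE 0.07, adjusted p = 0.0722).

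DNAJC25 was at 9.82 and 7.79 CPM with ILF2 shRNA and at 10.2 and 11.6 CPM with non-silencing shRNA (log2 fold change -0.30, SE 0.10, adjusted p = 0.0258). Its groups were separated by a narrow gap, and the call was lost without ILF2 shRNA replicate 2 (adjusted p = 0.458), without non-silencing replicate 2 (0.355) and with DESeq2 (0.109). Of its exon length, 39.4% is overlapped on the same strand by other annotated genes, among them the readthrough gene DNAJC25-GNG10, so its counts are uncertain.

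DNAJC1, the most abundant DNAJC gene per length, was at 326 and 305 CPM with ILF2 shRNA and at 277 and 288 CPM with non-silencing shRNA. The groups did not overlap, but the gene was not called (log2 fold change 0.16, SE 0.07, adjusted p = 0.0802). Its log2 fold change was 0.11 and 0.21 without ILF2 shRNA replicates 1 and 2. Without non-silencing replicates 1 and 2 it was 0.13 and 0.19. It made up 42.7% and 41.5% of the per-length DNAJC level with ILF2 shRNA and 40.0% and 40.3% with non-silencing shRNA. Next after HSP90AA1 in adjusted p came DNAJC9 and DNAJC30, named after their values were seen, with log2 fold changes of -0.19 (SE 0.07, adjusted p = 0.0587) and 0.23 (SE 0.09, adjusted p = 0.0640).

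**Figure D4:**
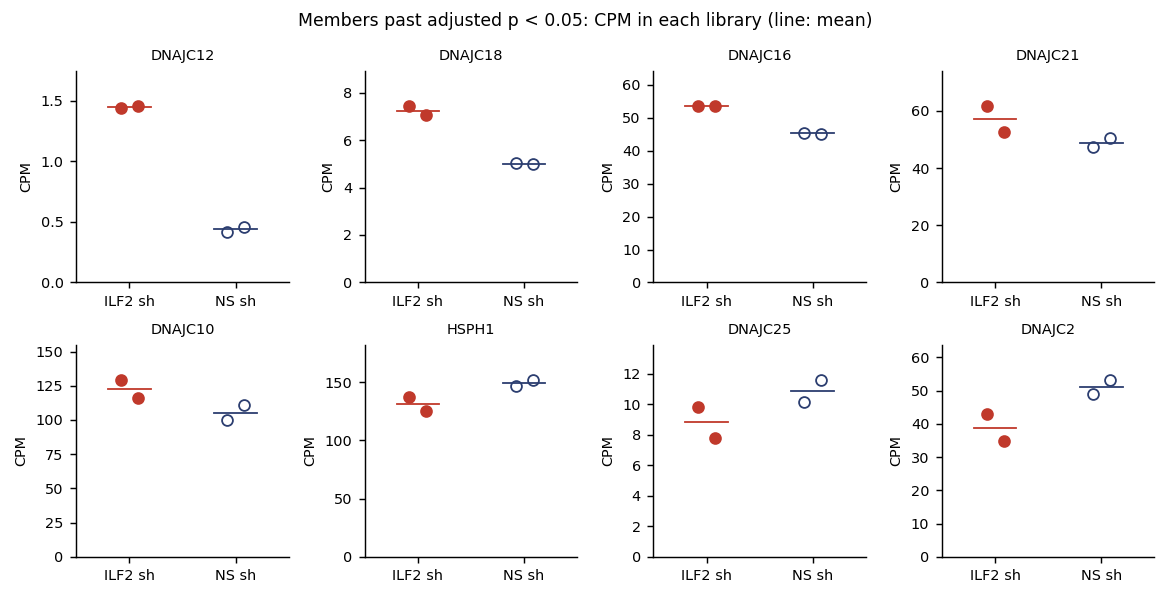
CPM of the 8 members past an adjusted p of 0.05 in each library, with ILF2 shRNA (ILF2 sh, filled) left of non-silencing shRNA (NS sh, open) and a line at each group's mean; the axes start at 0. DNAJC12, DNAJC18 and DNAJC16 show tight replicates well apart, while the libraries of DNAJC10, DNAJC21 and DNAJC25 come close between groups.

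DNAJC12, DNAJC18 and DNAJC2 passed the threshold with edgeR, DESeq2 and limma-voom, under the 2 other scalings, the 2 other filters, without the mitochondrial, 7SL and 7SK genes, with the GC content and exon length correction and without any single library. The plot of adjusted p by setting shows the other 5 called members on either side of the threshold.

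**Figure D5:**
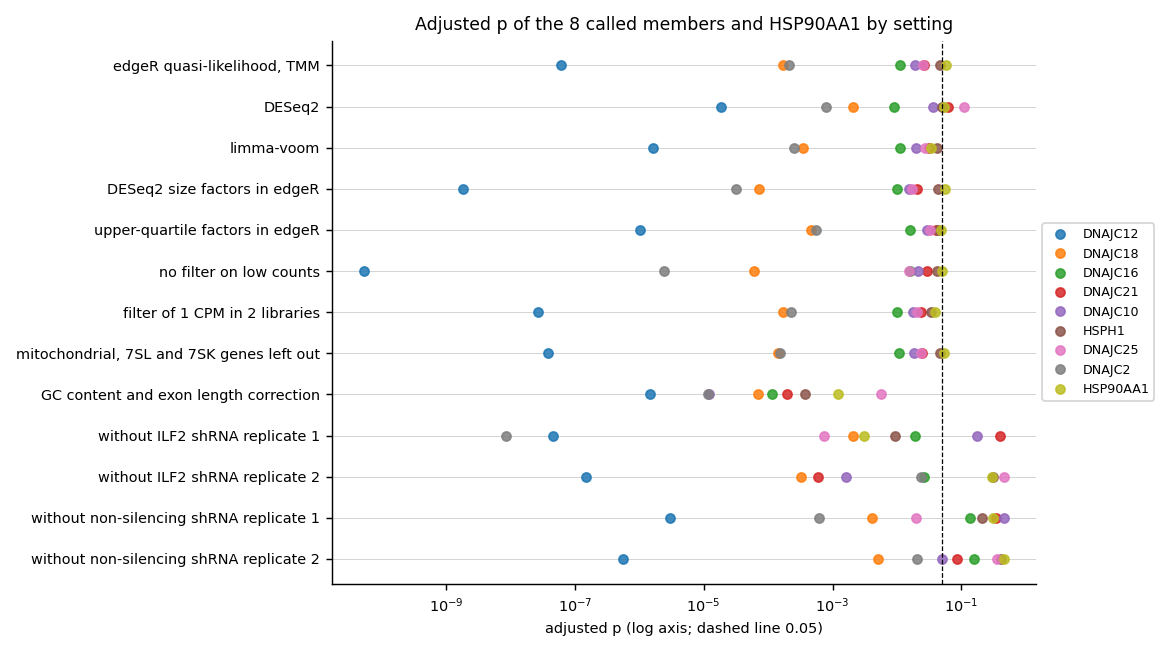
Adjusted p (log axis, dashed line at 0.05) of the 8 called members and HSP90AA1, one colour each, under each test, scaling, filter and left-out library. DNAJC12, DNAJC18 and DNAJC2 stay left of the line in every setting plotted, and HSPH1 moves between 0.000367 and 0.407.

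Location on chromosome 5 moved with part of the result. On that chromosome 29.7% of the 900 tested genes were higher and 3.33% lower with ILF2 shRNA; their median log2 fold change was 0.15. The 5 members there were DNAJC18 and DNAJC21, both called higher, HSPA4 and HSPA9, not called, and HSPB3, with no count. Relative to the chromosome's median, DNAJC18 was at 0.38, DNAJC21 at 0.08, HSPA9 at -0.04 and HSPA4 at -0.16 on the log2 scale. The part of the chromosome in these results was not tested.

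The promoter letters can be set beside the levels. The 6 tested members with the 3-unit element had a median log2 fold change of -0.10, 5 of them negative and 0 called in the main edgeR fit. HSP90AA1 and HSPD1 were called under the GC content and exon length correction, and HSP90AA1 also under other settings given above. The 43 tested members with a window and without the element had a median of 0.03, and all 8 called members were among them. Over all tested genes 20.3% were called, and a difference between members with and without the letters was not tested. With the shorter pattern 15 members were tested, with a median of -0.05 and 0 called in the main edgeR fit. Of these, HSP90AA1, HSPD1, DNAJA1, DNAJB1 and HSPA1B were called lower under the GC content and exon length correction. HSPB1 and HSPA4L were called higher there, in a fit that called 30.5% of all genes. No promoter window was available for DNAJC1, DNAJC5B, DNAJC22, DNAJC24, HSPA12B, HSPA14, HSPB2 and HSPB2-C11orf52.

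Among the regulators, HSF1, the main activator of the heat shock response, was at 29.8 and 31.5 CPM with ILF2 shRNA and at 30.9 and 28.9 CPM with non-silencing shRNA (log2 fold change 0.04, SE 0.08, adjusted p = 0.81). None of 4 regulators (HSF1, HSF2, HSF4 and HSBP1) was called. Of 12 known heat shock factor targets outside the family, 11 were tested and none was called. Both lists are small, and the share called over all tested genes was 20.3%. The log2 fold changes of the targets had a median of -0.08 and ran between -0.14 and 0.08. Among the most abundant of them, UBB, which encodes ubiquitin, was at 563 and 631 CPM with ILF2 shRNA and at 633 and 647 CPM with non-silencing shRNA. UBB (log2 fold change -0.10, adjusted p = 0.32) was called lower without ILF2 shRNA replicate 2 (adjusted p = 0.0453) and under the GC content and exon length correction (0.00886).

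Of 14 HSP70 co-chaperones, 4 were higher and 1 lower, with a median log2 fold change of 0.09; here and in the lists that follow, the share over all tested genes was 10.2% higher and 10.1% lower. BAG2, a nucleotide exchange factor that inhibits the ubiquitin ligase CHIP, was at 15.3 and 15.7 CPM with ILF2 shRNA and at 10.6 and 10.3 CPM with non-silencing shRNA (log2 fold change 0.57, SE 0.09, adjusted p = 1.9e-06). TTC1, a tetratricopeptide repeat protein, was at 98.9 and 92.5 CPM with ILF2 shRNA and at 73.2 and 77.3 CPM with non-silencing shRNA (log2 fold change 0.35, SE 0.07, adjusted p = 0.00014). SIL1, the exchange factor of the ER, was at 80.8 and 89.97 CPM with ILF2 shRNA and at 70.6 and 72.0 CPM with non-silencing shRNA (log2 fold change 0.26, SE 0.07, adjusted p = 0.0049). The other called genes were the mitochondrial exchange factor GRPEL2, higher, and BAG4, lower. TTC1, SIL1 and GRPEL2 also lie on chromosome 5.

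Of 15 HSP90 co-chaperones, 1 was lower and none higher, with a median of -0.02. FKBP5, an immunophilin bound to HSP90 in steroid receptor complexes, was at 48.2 and 47.2 CPM with ILF2 shRNA and at 61.2 and 58.7 CPM with non-silencing shRNA (log2 fold change -0.33, SE 0.07, adjusted p = 0.00040). Of 14 genes of the cytosolic chaperonin and prefoldin, the prefoldin subunit PFDN1, on chromosome 5, was higher (0.26) and the chaperonin subunits TCP1 (-0.21) and CCT6A (-0.20) were lower on the log2 scale, with a median of -0.07. Of 12 mitochondrial proteostasis genes, GRPEL2 was higher (0.22) and the disaggregase CLPB lower (-0.19), with a median of -0.05. Of 11 ER chaperones, 3 were higher and none lower: DNAJB9 (log2 fold change 0.29), HSPA5 (0.25) and CANX (0.19), the last on chromosome 5. Some genes belong to more than one of these lists.

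BAG2, TTC1 and FKBP5 were called in every fit that left out a library. The other named genes did not: all lost their call without non-silencing replicate 1, with adjusted p between 0.0636 (BAG4) and 0.57 (CANX), and all but DNAJB9 (0.0244) without non-silencing replicate 2, between 0.0665 (GRPEL2) and 0.351 (CCT6A and TCP1). Without ILF2 shRNA replicate 1 the calls of GRPEL2 (0.0664), CLPB (0.377) and CANX (0.0907) were lost. Without ILF2 shRNA replicate 2 those of SIL1 (0.105), BAG4 (0.183), PFDN1 (0.0645), CCT6A (0.0843) and TCP1 (0.123) were.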

How the data were processed

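Total RNA of H929 cells was sequenced as stranded, ribosomal RNA-depleted, paired-end libraries, 2 with ILF2 shRNA and 2 with non-silencing shRNA. The authors deposited counts of fragments per gene, made per the file headers with featureCounts 1.4.6-p2 on exons of an Ensembl GRCh37 annotation, counting paired fragments on the reverse strand. The submitters' processing notes name STAR 2.3.0 and SAMtools 0.1.19, whereas the series' design text names Tophat2 for mapping. Reads that fit several places are a limit for near-identical genes.

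Gene IDs were matched to GENCODE symbols on GRCh37 (55665 of 63677; the other 8012 were kept under their ID). All 4 libraries were fitted with edgeR 4.0.16 (R 4.3.3), with TMM scaling, the filterByExpr filter at a minimum count of 10, and a robust quasi-likelihood test on group alone with 2 residual degrees of freedom. P-values were adjusted over all 19142 tested genes by Benjamini-Hochberg, and called means an adjusted p under 0.05. CPM values use the same scaling (factors 0.970 to 1.02). The biological coefficient of variation was 5.38%. Standard errors follow from the F statistic. The test estimates the spread between libraries with information shared across all tested genes. P-values and intervals thus do not rest on a gene's own replicates alone. The fit was also run on simulated counts that gave all genes the same dispersion, which does not test the individual calls. Alternatives were DESeq2 1.42.0, limma-voom 3.58.1, 2 other scalings, 2 other filters (none, and 1 CPM in 2 libraries), leaving out mitochondrial, 7SL and 7SK genes, a replicate block and each library left out in turn; a GC content and exon length correction (mgcv 1.9.3) and a crossed block were chosen after seeing the data.

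The members, gene lists and alternatives were chosen with earlier results of these data known. The members named with values are all called ones, the most abundant per length in each class and 11 core or heat-inducible genes; from each other list, up to 3 genes with the smallest adjusted p, or the 2 most abundant. Exceptions are named as such, and 1 gene that this rule names is not reported here. Promoter sequences and their coordinates are from RefSeq GRCh38.p14, a build other than that of the counts, and were matched by symbol for 61 of 69 members.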

Additional observations from a re-analysis of the deposited data

How the results depend on the processing

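The number of members called higher was 5 and lower 3. DESeq2 gave 1 lower (14.3% of all genes called), and the filter of 1 CPM in 2 libraries gave 5 lower (26.5%). The GC content and exon length correction gave 11 higher and 10 lower (30.5%). Without each library in turn, the number higher ranged between 2 and 7, the number lower between 1 and 8, and the median log2 fold change between -0.00493 and 0.0395. With the replicate number as a block, 2 members were higher and 1 lower, and 13.5% of all genes were called, against 20.3% without it. The deviations of same-numbered libraries correlated at -0.207, so the numbers were not taken to pair the libraries. The crossed replicate block, chosen after seeing the data, gave 11 higher and 11 lower members, with 29.9% of all genes called. HSPE1 changed direction without ILF2 shRNA replicate 2 (log2 fold change 0.016), against -0.332 without ILF2 shRNA replicate 1. The cause of these differences was not tested. ILF2 was lower in every fit. Under the other scalings the median log2 fold change of all genes moved by less than 0.01. With 2 libraries a group and 2 residual degrees of freedom, changes of the size of HSPH1's lay close to the threshold. For HSPA1A and the members below the filter, low counts limit any comparison.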
